A study of Arabidopsis thaliana with 9 samples.

Results

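The glutathione S-transferases (GSTs) of Arabidopsis leaves were taken as every gene whose deposited description contains "glutathione S-transferase" or "glutathione transferase", which gave 59 of the 33610 genes listed. By their symbols these were 28 tau (GSTU), 13 phi (GSTF), 3 theta (GSTT), 3 lambda (GSTL) and 2 zeta (GSTZ) genes. The other members were 1 microsomal gene (AT1G65820), 2 genes described as subunits of translation elongation factor EF1B with a GST-like domain (eEF-1Bb1 and AT5G12110), and 7 loci with no class in their description. RNA came from rosette leaves detached at 30 days from uninfected plants, and poly(A) RNA was selected. The 3 genotypes, each with 3 libraries and no treatment beyond detachment, were Col-0 as wild type (WT), VQ28KO12, whose label calls it a VQ28 knockout, and VQ28OE9, whose label calls it a VQ28 overexpressor. Each modified genotype is 1 line. The sources used here do not say how the knockout was made, which promoter drives the overexpression, or whether libraries of 1 genotype came from different plants, so the spread behind the p-values may be technical.

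GSTs join the thiol of glutathione to reactive electrophiles, such as herbicides, products of lipid oxidation and defence metabolites. The conjugates are moved into the vacuole by carriers of the ABCC family and broken down there. The tau and phi classes are large in plants and are known as stress-inducible families, often induced together by oxylipins, salicylic acid and xenobiotics. VQ proteins are partners of WRKY factors, the DNA-binding regulators of many defence genes.

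VQ28 mRNA stood at 8.70, 0.456 and 6.72 FPKM (a level per length of gene and per depth of library) in WT libraries 1 to 3. It stood at 8.36, 10.1 and 0.0001 (the value the authors list for no counts) in the libraries labelled VQ28KO12, and at 6244, 4665 and 5942 in VQ28OE9. By VQ28 mRNA level alone, VQ28KO12 libraries 1 and 2 and WT library 2 go against their labels. How the knockout was made is not given, so it may leave mRNA. Whether any of these libraries is mislabelled was not tested. Called results that rest on them are given with and without them. Library totals were 64552605 to 95223547 deposited count units, and WT 3 and VQ28OE9 3 stood apart from the rest on the second principal component. Of the leaf markers, the summed FPKM of 3 mesophyll genes was 17800 to 20500 in WT, 16400 to 19300 in VQ28KO12 and 13700 to 15300 in VQ28OE9, while 2 flower markers summed to at most 0.264. The sum of 4 guard cell markers was 13.9 to 15.5, 16.3 to 23.4 and 19.7 to 24.0 in the same order, and that of 2 epidermis markers was 16.3 to 19.7, 22.3 to 25.9 and 9.46 to 12.9. No marker of these 3 leaf lists was at 0. Markers within a list differed. Between VQ28OE9 and WT the libraries did not overlap for RBCS1A and CA1 (mesophyll, lower), FMA and HT1 (guard cells, higher) and ATML1 (epidermis, lower). They overlapped for CAB2 (mesophyll), MYB60 and KAT1 (guard cells) and PDF2 (epidermis). Of all genes with a mean of at least 1 FPKM, 9.24% did not overlap and were lower, and 13.0% were higher. The summed phloem and xylem markers overlapped between the genotypes. In bulk leaf RNA, fewer cells of a type and less RNA per cell cannot be told apart, and the part of these marker differences in the GST results was not tested.

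In WT leaves the GST transcripts were dominated by a few genes. The 59 members together held 1.03% ± 0.0501 of all FPKM in WT (SD, n = 3), 1.03% ± 0.130 in VQ28KO12 and 0.984% ± 0.0966 in VQ28OE9, and the genotypes overlapped. GSTU5, a tau gene, alone stood at 2655, 2771 and 2735 FPKM in the WT libraries, which is 36.7% of the WT FPKM of all members. The phi genes GSTF10 (ERD13) and GSTF9, both linked to glucosinolate synthesis, followed with WT means of 771 ± 63.5 and 561 ± 67.6 FPKM (SD, n = 3, as for the means after these). Next came the tau gene GSTU17 (ERD9) at 477 ± 172, the stress-induced phi gene GSTF8 at 337 ± 26.8 and the tau genes GSTU20 at 329 ± 35.1 and GSTU6 at 252 ± 30.2. GSTF6, which has been linked to camalexin synthesis, stood at 236 ± 67.3, GSTF2 at 214 ± 73.6 and GSTU13, which has been linked to indole glucosinolates, at 182 ± 62.2. These 10 genes held 82.0% of the GST FPKM in WT. By WT mean, 1 member lay at 1000 FPKM or more, 14 between 100 and 1000, 13 between 10 and 100, 14 between 1 and 10, and 17 under 1.

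**Figure D1:**
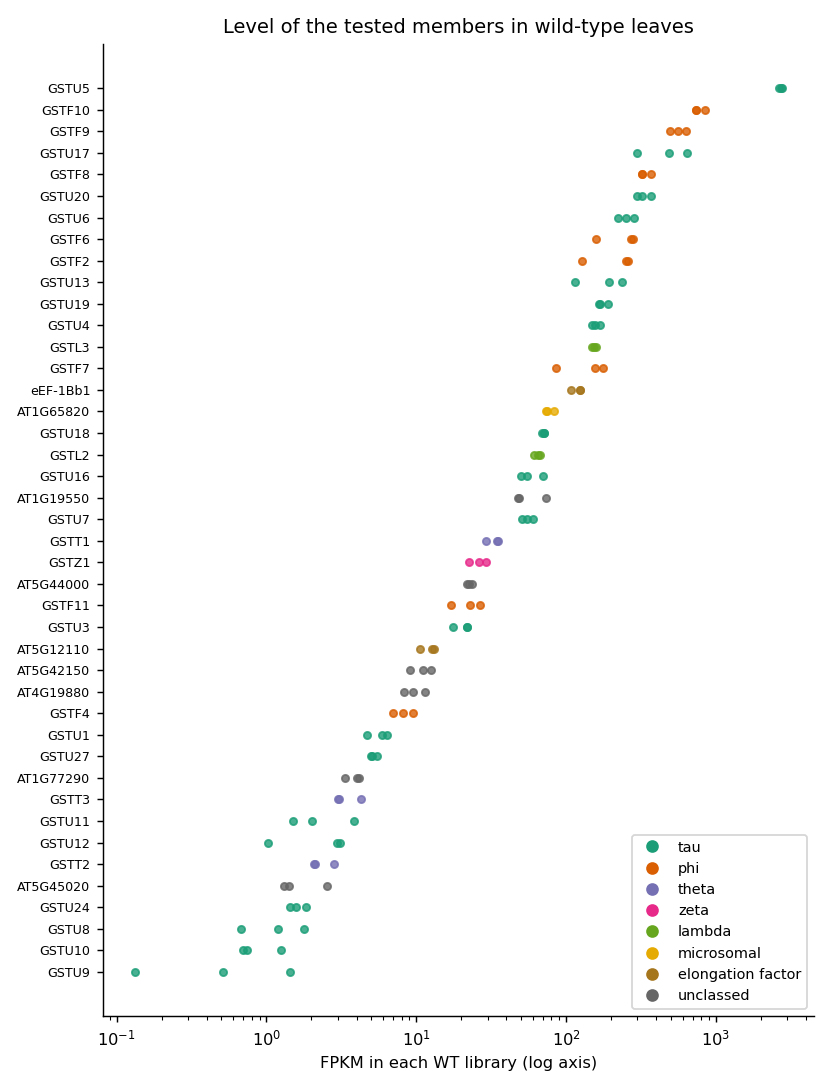
Level of the tested members in WT leaves. Each point is 1 WT library, the x axis is FPKM on a log axis, and colours mark the class; GSTU5 stands alone at the top with a mean of 2720.5 FPKM, and tau genes occupy both ends of the range.

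A mean of at least 1 FPKM over the 9 libraries was asked of a gene before testing, and 42 of the 59 members passed: 19 tau, 8 phi, 3 theta, 2 lambda, 1 zeta, the microsomal gene, both EF1B genes and 6 unclassed loci. The other 17 lay between 0.0001 and 1.64 FPKM in every library. GSTF14, GSTU15 and GSTU21 were at 0 in all 9 libraries, and a count of 0 allows up to 3 fragments in a library. That would be 12 deposited units if 1 fragment is taken as 4 units, which is an assumption, since what a unit stands for is not given. GSTF12 (TT19), which is needed for anthocyanin deposition in the vacuole, reached no more than 0.0734 FPKM. GSTF3, GSTF5, GSTF13, GSTU14, GSTZ2 and AT5G44990 also had 0 in at least 1 library, and GSTU22, GSTU23, GSTU25, GSTU26, GSTU28, GSTL1 and GSTU2 were above 0 in all 9.

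Between VQ28OE9 and WT, 2 of the 42 tested members were lower and 0 higher at a Benjamini-Hochberg adjusted p under 0.05 in edgeR's quasi-likelihood test over all 16050 tested genes. That is 4.76% of the members, beside 2.31% of all tested genes called in either direction, 0.935% lower and 1.37% higher. The lower members were GSTF2, a phi GST known to bind camalexin and other indole compounds, and GSTU3, a tau GST. At an unadjusted p under 0.05 there were 10 of the 42 members, beside 17.4% of all tested genes, and DESeq2 called 5, beside 8.46% of all tested genes. The median log2 fold change of the members was -0.16, beside 0.00 over all tested genes. It was much the same in VQ28KO12 against WT (-0.17), and it was -0.02 between VQ28OE9 and VQ28KO12. Negative values were held by 25 of the 42 members in VQ28OE9 and by 27 in VQ28KO12, each against WT. Most effects were small: 29 of 42 members lay within 0.5 of 0 on the log2 scale and 4 were at 1 or beyond.

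GSTF2 (AT4G02520) lies at chr4:1110452-1111660 on the minus strand in the deposited table, which names no genome build. Its level was 261, 251 and 129 FPKM in the WT libraries, 144, 197 and 200.5 in VQ28KO12 and 76.1, 46.2 and 40.2 in VQ28OE9. All 3 VQ28OE9 libraries lay below every WT and every VQ28KO12 library, and WT library 3 was the lowest of WT. The log2 fold change of VQ28OE9 against WT was -1.99 ± 0.31 (SE; edgeR adjusted p = 0.0197), and without WT 1 or VQ28OE9 2 the adjusted p was 0.0533 or 0.0609. Without the 3 libraries that go against their VQ28 labels it was -1.86 (adjusted p = 0.0902).

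GSTF2 has a close copy, GSTF3 (AT2G02930) on chromosome 2, and their coding sequences in the RefSeq annotation of TAIR10.1 were 94.5% identical, with 35 of 639 aligned bases differing. The first 120 coding bases are shown because the counting could have split reads between the pair; capitals mark the 4 positions that differ.
GSTF2: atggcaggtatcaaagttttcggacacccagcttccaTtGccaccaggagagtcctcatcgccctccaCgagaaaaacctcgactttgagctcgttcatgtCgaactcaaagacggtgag
GSTF3: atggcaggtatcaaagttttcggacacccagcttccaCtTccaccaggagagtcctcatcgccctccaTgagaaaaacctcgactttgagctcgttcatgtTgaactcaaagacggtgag
GSTF3 was not tested, and in no library did it exceed 0.372 FPKM, against 40.2 to 261 for GSTF2. Its deposited units were 26, 25 and 16 in WT, 14, 17 and 0 in VQ28KO12 and 0, 8 and 0 in VQ28OE9. The sources used here do not say how reads shared by both copies were assigned.

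GSTU3 (AT2G29470) lies on the minus strand at chr2:12628541-12629543 in the deposited table, within a tandem array of 7 tau genes. Its level was 21.7, 17.7 and 21.8 FPKM in WT, 7.59, 19.2 and 11.3 in VQ28KO12 and 4.31, 6.33 and 8.61 in VQ28OE9. Every VQ28OE9 library lay below every WT library, while the VQ28KO12 libraries spanned the gap and overlapped VQ28OE9. The log2 fold change against WT was -1.69 ± 0.34 (SE; edgeR adjusted p = 0.0398). The call was lost without WT 1, 2 or 3 (adjusted p = 0.0932, 0.0618 and 0.0996), without VQ28KO12 3 (0.0616) and without VQ28OE9 1 or 2 (0.13 and 0.102), and it was 0.0717 without the 3 libraries that go against their VQ28 labels.

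**Figure D2:**
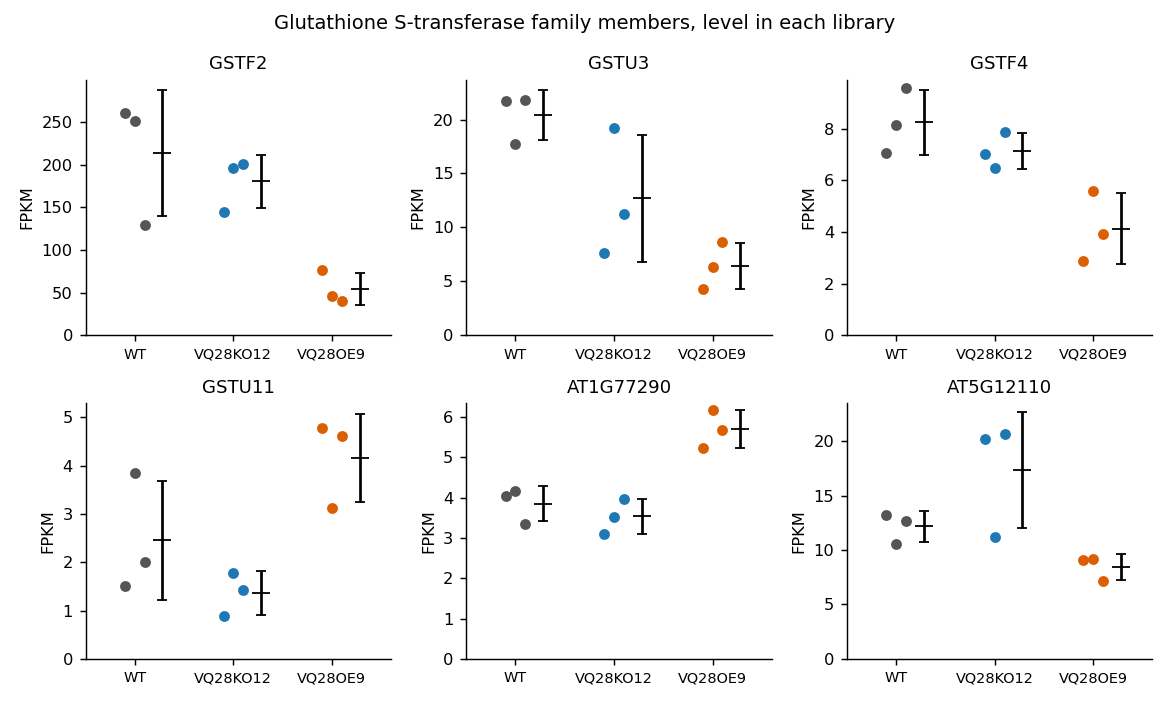
Level of 6 members in each library. Points are libraries in FPKM on axes that start at 0, and the bar beside them is the mean ± SD of 3 libraries; VQ28OE9 lies below both other genotypes for GSTF2, GSTF4 and AT5G12110 and above both for AT1G77290, while GSTU3 overlaps VQ28KO12 and GSTU11 overlaps WT.

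Of the 8 tested phi genes, 6 had a negative and 2 a positive fold change in VQ28OE9 against WT, with a median of -0.42 (log2), and GSTF2 was the one called. GSTF4, a neighbour of GSTF6 and GSTF7 in a phi array on chromosome 1, stood at 7.05, 8.14 and 9.57 FPKM in WT, 7.04, 6.48 and 7.87 in VQ28KO12 and 2.89, 5.59 and 3.92 in VQ28OE9. The VQ28OE9 libraries did not overlap the others, but the fold change of -1.02 ± 0.24 (SE; edgeR adjusted p = 0.0589) missed the threshold, which DESeq2 passed (adjusted p = 0.00228). GSTF4 overlaps AT1G02952 on the opposite strand, and whether counting used strand is not given, so reads of the pair cannot be told apart.

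GSTF10 showed 736, 844 and 733 FPKM in WT, 629, 1080.4 and 712 in VQ28KO12 and 544, 466 and 512 in VQ28OE9, where all 3 libraries lay below the rest. Its fold change against WT was -0.62 ± 0.19 (SE; edgeR adjusted p = 0.125), and DESeq2 gave an adjusted p of 0.0368. Its tandem neighbour GSTF9, 77.6% identical in coding sequence, stood at 497, 556 and 631, 549, 567 and 711 and 368, 417 and 515 FPKM in the same order of genotypes, with an overlap of VQ28OE9 and WT and a fold change of -0.39 ± 0.18 (SE; edgeR adjusted p = 0.288). GSTF8 had a fold change of 0.18 ± 0.14 (SE, edgeR adjusted p = 0.575). GSTF8 overlaps AT2G47720 on the same strand, and how shared reads were assigned is not given, so its level may include reads of that gene.

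GSTF6 and GSTF7 lie side by side on chromosome 1 and share 94.3% of their coding bases, with 36 of 630 aligned bases differing. Their first 120 coding bases are shown because reads of the 2 genes are hard to separate; capitals mark the 2 positions that differ.
GSTF6: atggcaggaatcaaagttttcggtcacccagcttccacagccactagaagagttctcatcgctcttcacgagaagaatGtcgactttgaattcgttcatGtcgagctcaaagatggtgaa
GSTF7: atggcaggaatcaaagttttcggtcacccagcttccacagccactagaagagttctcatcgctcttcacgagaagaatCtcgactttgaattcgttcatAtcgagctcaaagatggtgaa
GSTF6 varied widely within each genotype, with 271, 279 and 158 FPKM in WT, 129, 321 and 179 in VQ28KO12 and 338, 200.1 and 180.4 in VQ28OE9. GSTF7 showed 156, 176 and 86.1, 88.9, 179 and 115 and 163, 76.9 and 68.9 FPKM. The genotypes overlapped for both genes, and their fold changes in VQ28OE9 against WT were 0.01 ± 0.36 and -0.45 ± 0.39 (log2, SE; adjusted p = 0.995 and 0.625 in edgeR).

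Summed over the class, phi FPKM was 2275, 2499.9 and 2092 in WT, 1916, 2829.8 and 2347 in VQ28KO12 and 1929.5, 1594 and 1720.3 in VQ28OE9. The VQ28OE9 sums lay below those of WT and overlapped VQ28KO12. The tau sum was 4206, 4648 and 4718 in WT, 4380.0, 5075 and 4192 in VQ28KO12 and 4366, 4303 and 5525 in VQ28OE9, and the genotypes overlapped.

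Of the 19 tested tau genes, 11 had a negative and 8 a positive fold change in VQ28OE9 against WT, with a median of -0.18, and GSTU3 was the one called. The array that holds GSTU3 spans chr2:12617936-12632473 in the deposited table, in the order GSTU7, GSTU6, GSTU5, GSTU4, GSTU3, GSTU2 and GSTU1, all on the minus strand. Neighbours in it differ widely in level: the WT means were 55.4 ± 4.78, 252 ± 30.2, 2721 ± 59.4, 159 ± 10.1, 20.4 ± 2.34, 0.276 ± 0.158 and 5.67 ± 0.885 FPKM in that order. GSTU4, 81.6% identical to GSTU3 in coding sequence, showed 149.9, 157 and 169.8 FPKM in WT, 99.1, 170.3 and 102 in VQ28KO12 and 44.1, 66.7 and 149.7 in VQ28OE9. VQ28OE9 library 3 lay at the lower edge of WT and the other 2 far below it, and the fold change was -0.89 ± 0.39 (SE; edgeR adjusted p = 0.283). Without VQ28OE9 3, one of the libraries that stood apart, it was -1.56 with an adjusted p of 0.0395.

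GSTU5, the most abundant member, showed 3124, 2949 and 3619 FPKM in VQ28OE9 and 2922, 3125 and 2679 in VQ28KO12. The VQ28OE9 libraries lay above WT without passing the test (log2 fold change 0.23 ± 0.12 (SE; edgeR adjusted p = 0.394)). GSTU6, GSTU7 and GSTU1 had fold changes of -0.40 ± 0.22, -0.17 ± 0.13 and 0.63 ± 0.37 (log2, SE; adjusted p = 0.392, 0.597 and 0.442 in edgeR). GSTU7 overlaps AT2G29410 on the opposite strand, and its reads cannot be told apart from that gene's. GSTU2 was not tested and did not exceed 1.59 FPKM. Outside the array, GSTU18 and GSTU19, with WT means of 70.6 ± 1.44 and 175 ± 14.7 FPKM, lay close to 0 with fold changes of 0.03 ± 0.11 and 0.10 ± 0.15.

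**Figure D3:**
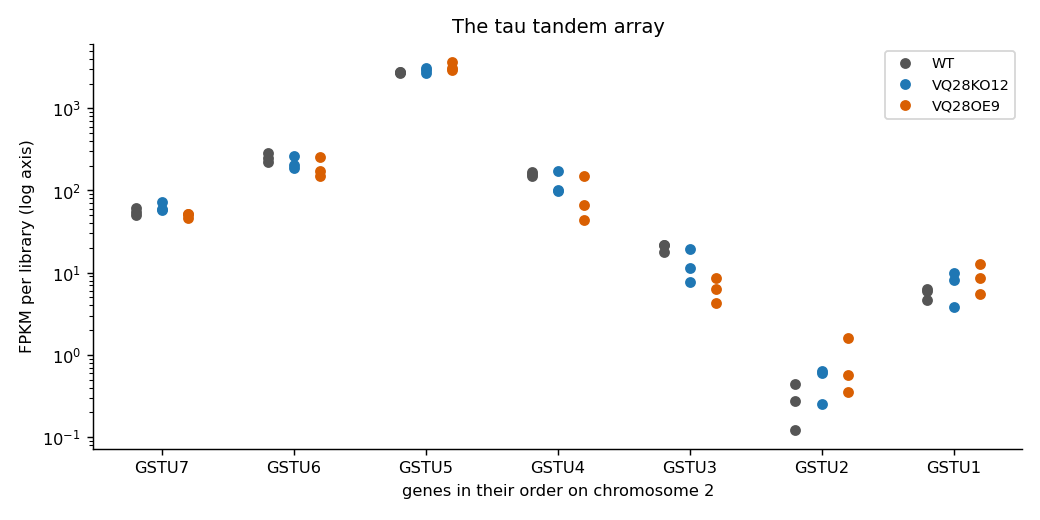
Levels along the tau array on chromosome 2. Genes are in chromosome order on the x axis, each point is 1 library, the y axis is FPKM on a log axis and colours mark the genotype. GSTU5 is the peak, GSTU2 the low point, and VQ28OE9 separates from WT downward at GSTU3. At GSTU4, which was not called, VQ28OE9 3 (149.7 FPKM) lies at the lower edge of WT (149.9).

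Among the other classes, no member passed the test against WT. The lambda GST GSTL3 stood at 159, 153 and 149 FPKM in WT, 154, 146 and 147 in VQ28KO12 and 169, 182 and 176 in VQ28OE9, with VQ28OE9 above the rest and a fold change of 0.17 ± 0.09 (SE; edgeR adjusted p = 0.388). The microsomal gene AT1G65820 stood at 73.5, 82.9 and 74.8, 65.1, 88.3 and 70.0 and 59.4, 59.0 and 64.4 FPKM, with VQ28OE9 below the rest and a fold change of -0.36 ± 0.13 (SE; edgeR adjusted p = 0.197). GSTZ1, the zeta enzyme that acts as maleylacetoacetate isomerase in tyrosine breakdown, had a fold change of -0.15 ± 0.14 (SE; edgeR adjusted p = 0.673). GSTT1, GSTT2 and GSTT3 of the theta class lay between -0.26 and 0.16 (log2). eEF-1Bb1, a nucleotide exchange subunit of the elongation factor and a member only through its description, stood at 124, 107 and 124, 134, 129 and 135 and 143, 143 and 144 FPKM, in 3 ranges that did not overlap, with a fold change of 0.25 ± 0.10 (SE; edgeR adjusted p = 0.241). The 6 tested loci without a class lay between -0.46 (AT5G45020) and 0.54 (AT1G77290).

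Counting members whose VQ28OE9 and WT libraries did not overlap, 8 were lower (19.0% of those tested, beside 9.24% of all tested genes) and 6 higher (14.3% beside 13.0%). The 8 were GSTF2, GSTF4, GSTF10, GSTU3, GSTU4, GSTU27, AT1G65820 and AT5G12110. The 6 were GSTU5, GSTU9, GSTU10, GSTL3, eEF-1Bb1 and AT1G77290.

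Between VQ28KO12 and WT, 0 of the 42 members were called, beside 0.00623% of all tested genes; 4 had an unadjusted p under 0.05 in edgeR, beside 5.03% of all, and DESeq2 called 0 members too, beside 0.243% of all tested genes. These comparisons share the WT libraries with those of VQ28OE9, so each has its own values here. The members with the smallest p were all tau genes and all lower in value in VQ28KO12. GSTU8 stood at 0.673, 1.77 and 1.19 FPKM in WT and 0.324, 0.660 and 0.588 in VQ28KO12, with a log2 fold change of -1.24 ± 0.47 (SE; edgeR adjusted p = 0.982). GSTU20, linked to glucosinolate synthesis, stood at 298, 323 and 367 and 209, 238 and 286 FPKM, with a fold change of -0.47 ± 0.19 (SE; edgeR adjusted p = 0.982). GSTU12 had a fold change of -1.15 ± 0.47 (SE; edgeR adjusted p = 0.982).

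GSTF2 and GSTU3, the members called lower in VQ28OE9, had fold changes of -0.28 ± 0.30 and -0.73 ± 0.34 in VQ28KO12 (log2, SE; adjusted p = 1 and 0.982 in edgeR). Of the 19 tau genes, 14 had a negative and 5 a positive value in VQ28KO12 against WT, with a median of -0.35, while the 8 phi genes had a median of -0.08. In all, 37 of the 42 members lay within 0.5 of 0 on the log2 scale. The libraries did not overlap for 2 lower members, GSTU8 and GSTU20 (4.76%, beside 2.76% of all tested genes), and for 1 higher member, eEF-1Bb1 (2.38%, beside 8.00%). Without WT 2 and VQ28KO12 1 and 2, which leaves 1 VQ28KO12 library that is assumed to vary like the others, 0 members were called; the value of GSTF2 was then 0.05.

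**Figure D4:**
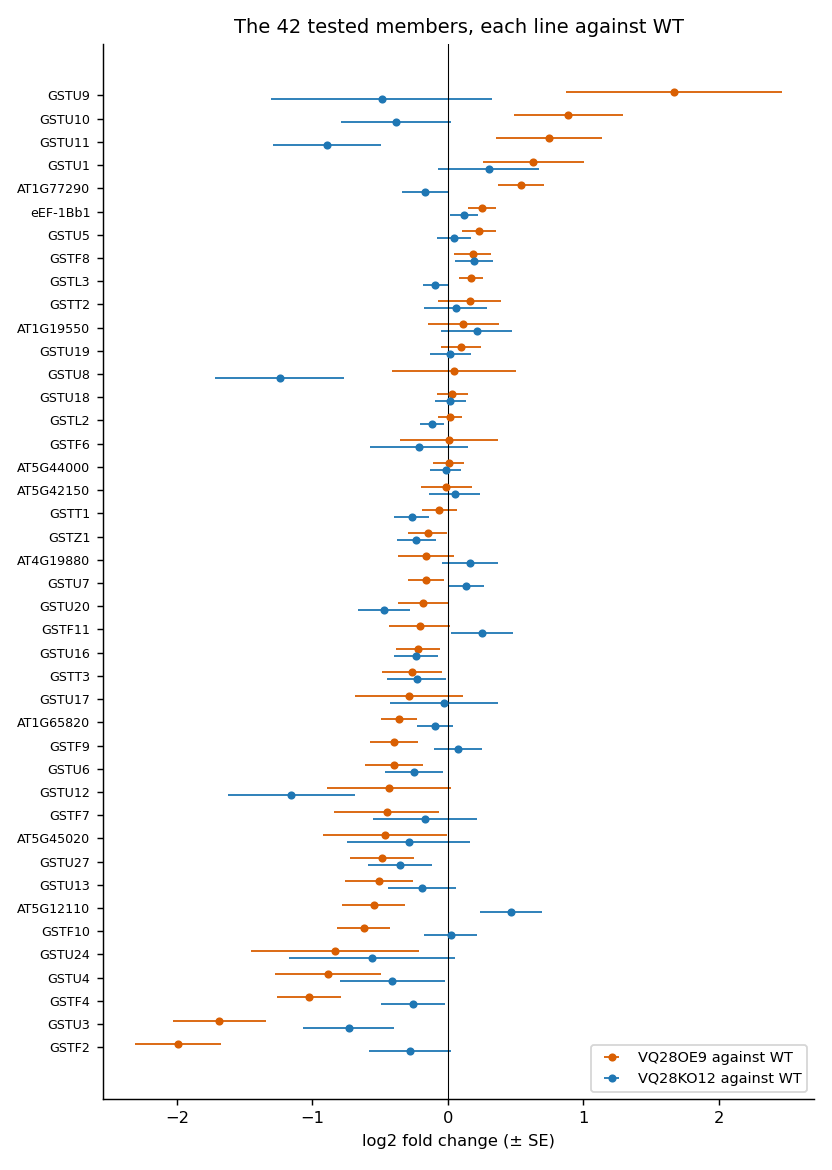
Fold changes of the 42 tested members in each line against WT. The x axis is the edgeR log2 fold change with its SE, orange for VQ28OE9 and blue for VQ28KO12, ordered by the VQ28OE9 value; GSTF2 (-1.99) and GSTU3 (-1.69) stand at the foot of the VQ28OE9 series, and both series share the WT libraries.

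Between VQ28OE9 and VQ28KO12, 2 members were higher and 2 lower (9.52% of the 42, beside 6.33% of all tested genes, 3.71% higher and 2.62% lower), and 12 had an unadjusted p under 0.05, beside 21.2% of all. DESeq2 called 9 members, beside 12.2% of all tested genes. The lower members were GSTF2 and AT5G12110, and the higher ones GSTU11 and AT1G77290. GSTF2 had a log2 fold change of -1.71 ± 0.31 (SE; edgeR adjusted p = 0.0167). Its adjusted p was 0.062 without VQ28KO12 3 and 0.0537 without VQ28OE9 2, and 0.126 without the 3 libraries that go against their VQ28 labels.

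AT5G12110, described as an EF1B subunit, stood at 13.2, 10.6 and 12.7 FPKM in WT, 20.2, 11.2 and 20.7 in VQ28KO12 and 9.06, 9.17 and 7.11 in VQ28OE9. VQ28OE9 lay below the rest, and VQ28KO12 libraries 1 and 3 lay above all others. The log2 fold change was -1.02 ± 0.23 (SE; edgeR adjusted p = 0.0328), against -0.55 ± 0.23 for VQ28OE9 against WT (adjusted p = 0.256 in edgeR). The call was lost without VQ28KO12 1 or 3 (adjusted p = 0.115 and 0.119), without VQ28OE9 1, 2 or 3 (0.0822, 0.0805 and 0.0918) and without the 3 libraries that go against their VQ28 labels (0.0699).

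GSTU11 (AT1G69930), a tau gene on chromosome 1 beside GSTU12, stood at 1.51, 3.85 and 2.00 FPKM in WT, 0.877, 1.77 and 1.43 in VQ28KO12 and 4.77, 3.11 and 4.61 in VQ28OE9. VQ28OE9 lay above VQ28KO12 and overlapped WT library 2. The log2 fold change against VQ28KO12 was 1.64 ± 0.40 (SE; edgeR adjusted p = 0.0418), from 73 to 382 deposited units a library. The adjusted p was 0.14, 0.052 and 0.118 without VQ28KO12 1, 2 and 3, 0.12, 0.0565 and 0.0963 without VQ28OE9 1, 2 and 3, and 0.18 without the 3 libraries that go against their VQ28 labels.

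AT1G77290, a locus described as a GST family protein, stood at 4.04, 4.16 and 3.36 FPKM in WT, 3.10, 3.52 and 3.97 in VQ28KO12 and 5.23, 6.18 and 5.69 in VQ28OE9. All VQ28OE9 libraries lay above all others. The log2 fold change was 0.71 ± 0.17 (SE; edgeR adjusted p = 0.0383), and 0.54 ± 0.17 (SE; edgeR adjusted p = 0.126) against WT. The call against VQ28KO12 was lost without WT 1 or 2 (adjusted p = 0.0609 and 0.0561), without VQ28KO12 1, 2 or 3 (0.131, 0.0791 and 0.0638), without VQ28OE9 1, 2 or 3 (0.0828, 0.106 and 0.0923) and without the 3 libraries that go against their VQ28 labels (0.368).

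Without WT 3 and VQ28OE9 3, the libraries that stood apart, GSTF2 remained called against WT (-2.08, adjusted p = 0.0248) and against VQ28KO12 (-1.54, adjusted p = 0.0134). In that setting GSTU3 against WT had an adjusted p of 0.0795, and against VQ28KO12 the values were 0.0885 for AT5G12110, 0.0797 for AT1G77290 and 0.09 for GSTU11, all with the same direction as before. GSTU4 gained a call there against VQ28KO12 (-1.14, edgeR adjusted p = 0.0406), from -0.48 (0.544) with all libraries. Leaving out VQ28OE9 3 alone also gave that call (-1.15, edgeR adjusted p = 0.0492).

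Between the lines, 7 of the 8 tested phi genes had a negative value, the called GSTF2 among them, with a median of -0.46 over the 8. GSTF10 and GSTF9 were not called, GSTF10 with -0.64 ± 0.19 (SE; edgeR adjusted p = 0.0836) and GSTF9 with -0.47 ± 0.18 (SE; edgeR adjusted p = 0.162). Of the 19 tau genes, 11 were positive and 8 negative. Beside the called GSTU11, the tau genes with a positive value of 1 or more were GSTU9 with 2.16 ± 0.81 (SE; edgeR adjusted p = 0.161), GSTU8 with 1.29 ± 0.47 (SE; edgeR adjusted p = 0.149) and GSTU10 with 1.27 ± 0.40 (SE; edgeR adjusted p = 0.0978), at means of at most 2.28 FPKM in any genotype. Libraries of the lines did not overlap for 8 lower members (19.0%, beside 14.4% of all tested genes) and 8 higher ones (19.0%, beside 12.1%). GSTU13, GSTU7 and GSTL2 were among them, with fold changes of -0.32 ± 0.25, -0.30 ± 0.13 and 0.13 ± 0.09 (log2, SE; adjusted p = 0.523, 0.236 and 0.46 in edgeR); GSTL2 overlaps AT3G55030 on the opposite strand.

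Members differed in how far their libraries spread within a genotype. Over the 28 tested members with a mean of at least 10 FPKM, the coefficient of variation within a genotype, averaged over the 3 genotypes, ran from 3.27% to 41.6% with a median of 14.9%. GSTL3 (3.27%), eEF-1Bb1 (3.68%) and GSTL2 (4.28%) varied least. GSTU17 (41.6%), GSTF7 (40.3%), GSTF6 (37.3%) and GSTU4 (34.3%) varied most. GSTU17 ran over 299.7, 488 and 644 FPKM in WT, 389.9, 710.3 and 355 in VQ28KO12 and 319, 255 and 613 in VQ28OE9, and no genotype difference was detectable over that spread.

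The genes around the GSTs were read from 7 lists of the glutathione pathway. In glutathione synthesis and turnover, 8 genes were tested, of which 1 was higher and 1 lower in VQ28OE9 against WT, beside 1.37% and 0.935% of all tested genes. GSH1, which makes gamma-glutamylcysteine in the first step of synthesis, stood at 88.7, 82.2 and 88.9 FPKM in WT, 88.5, 88.3 and 77.9 in VQ28KO12 and 53.9, 68.7 and 59.9 in VQ28OE9, below all others, with a log2 fold change of -0.53 ± 0.11 (SE; adjusted p = 0.0406 in edgeR). GGT1, an extracellular gamma-glutamyl transpeptidase that breaks down glutathione and its conjugates, stood at 54.5, 61.9 and 31.1 FPKM in WT, 48.9, 58.1 and 53.1 in VQ28KO12 and 147, 105 and 88.6 in VQ28OE9, above all others, with 1.19 ± 0.26 (adjusted p = 0.0448). Against VQ28KO12 they were called too, at -0.45 ± 0.11 and 1.12 ± 0.25 (adjusted p = 0.0401 and 0.0327). The calls of both genes against WT were lost without any 1 library, except GGT1 without VQ28OE9 3, with adjusted p up to 0.146 for GSH1 and 0.141 for GGT1. Against VQ28KO12 GSH1 lost its call without any 1 library but WT 3 (up to 0.138), and GGT1 without VQ28KO12 1, 2 or 3 and VQ28OE9 1 or 2 (up to 0.121). Leaving out the 3 libraries that go against their VQ28 labels leaves 1 VQ28KO12 library. The values against it were -0.38 for GSH1 and 1.08 for GGT1. Without WT 3 and VQ28OE9 3 the adjusted p against WT was 0.176 for GSH1 and 0.058 for GGT1; without the 3 libraries that go against their VQ28 labels it was 0.113 and 0.105.

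In sulfate uptake and assimilation to cysteine, which supplies the cysteine of glutathione, 15 genes were tested and 0 were called in VQ28OE9 against WT, 12 with a negative value and a median of -0.25; 5 had an unadjusted p under 0.05, beside 17.4% of all tested genes. Against VQ28KO12 4 were lower and 0 higher, beside 2.62% and 3.71% of all. SIR, the sulfite reductase, stood at 247, 229 and 271 FPKM in WT, 271, 301 and 292 in VQ28KO12 and 192, 192 and 189 in VQ28OE9, with -0.57 ± 0.11 against VQ28KO12 (adjusted p = 0.0225 in edgeR). APR3, an adenylyl sulfate reductase, fell by 0.81 ± 0.17, OASC, which makes cysteine in mitochondria, by 0.55 ± 0.13, and APS3, an ATP sulfurylase, by 0.57 ± 0.14 on the log2 scale (adjusted p = 0.0252, 0.0363 and 0.0428). All 4 had VQ28OE9 libraries below every other library. The 4 calls were lost without VQ28KO12 1 (adjusted p = 0.0591, 0.082, 0.111 and 0.12) and without VQ28OE9 2 (0.0709, 0.0803, 0.0523 and 0.129), in the same order. SIR was also lost without VQ28KO12 3 and VQ28OE9 1 or 3 (0.0728, 0.0698 and 0.0582), APR3 without VQ28OE9 1 (0.0703), and OASC without WT 1, VQ28KO12 3 and VQ28OE9 1 or 3 (0.0576, 0.129, 0.12 and 0.0982). APS3 was also lost without WT 1 or 2, VQ28KO12 2 or 3 and VQ28OE9 3 (0.0585, 0.0501, 0.0525, 0.129 and 0.115), and without the 3 libraries that go against their VQ28 labels the 4 had adjusted p of 0.13, 0.301, 0.136 and 0.198. Without WT 3 and VQ28OE9 3, SIR and APR3 remained called against VQ28KO12 (adjusted p = 0.0389 and 0.0391), as did GGT1 (0.00758), while OASC (0.0842), APS3 (0.109) and GSH1 (0.0887) did not.

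**Figure D5:**
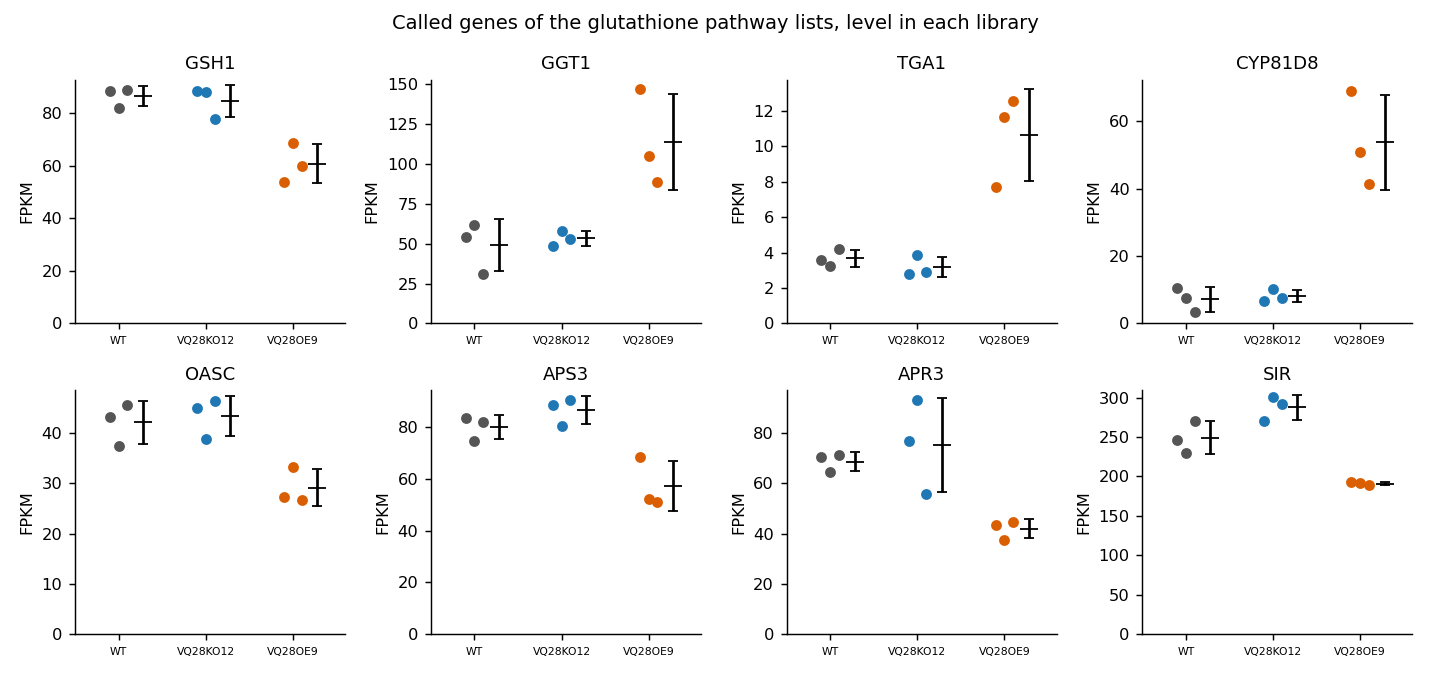
Level of the 8 called genes of the pathway lists in each library. Points are libraries in FPKM on axes that start at 0 and bars are the mean ± SD of 3 libraries; VQ28OE9 lies apart from both other genotypes in all 8 panels, above them for GGT1, TGA1 and CYP81D8 and below them for GSH1 and the 4 sulfate genes.

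The list of TGA factors, bZIP proteins that bind TGACG, and of the GRAS protein SCL14 had 8 tested genes. In VQ28OE9 against WT 1 was higher and 0 lower, beside 1.37% and 0.935% of all tested genes. The higher gene was TGA1. The others were not called, with log2 fold changes of 0.16 for SCL14, 0.40 for TGA3 and 0.08 for TGA4. For OBF5, AHBP-1B, TGA6 and TGA7 they were 0.21, -0.06, -0.08 and -0.06. TGA1 stood at 3.60, 3.25 and 4.18 FPKM in WT, 2.81, 3.86 and 2.93 in VQ28KO12 and 7.68, 11.7 and 12.5 in VQ28OE9, with 1.51 ± 0.21 against WT and 1.76 ± 0.21 against VQ28KO12 (log2, SE; adjusted p = 0.0128 and 0.00533 in edgeR). In the list of chemical detoxification and oxylipin response genes outside the GSTs, 1 of 20 was higher and 0 lower against WT, beside the same shares of all genes. CYP81D8, a cytochrome P450 of that response, stood at 10.5, 7.56 and 3.29 FPKM in WT, 6.59, 10.1 and 7.64 in VQ28KO12 and 69.1, 50.9 and 41.3 in VQ28OE9, with 2.90 ± 0.38 against WT (adjusted p = 0.011). Against VQ28KO12 its value was 2.75 (edgeR adjusted p = 0.00764). Leaving out the 3 libraries that go against their VQ28 labels leaves 1 VQ28KO12 library. The values against it were 1.84 for TGA1 and 2.79 for CYP81D8. Both genes stayed past the threshold in 19 of 20 alternative settings, and without the 3 libraries that go against their VQ28 labels their adjusted p against WT was 0.0788 each.

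The remaining lists had 0 called genes in any comparison. In the glutathione redox cycle (10 tested) the smallest p of VQ28OE9 against WT was that of MDAR6, a monodehydroascorbate reductase, with -0.33 ± 0.13 (log2, SE; adjusted p = 0.238 in edgeR), and 2 genes had an unadjusted p under 0.05. In the glutathione peroxidase-like list (7 tested) it was GPX7 with -0.45 ± 0.21 (adjusted p = 0.31), and among the vacuolar ABCC carriers (9 tested) ABCC14 with -0.48 ± 0.18 (adjusted p = 0.196). In VQ28KO12 against WT 0 genes of the 7 lists were called in edgeR, where the smallest p was that of ABCC4, with -0.71 ± 0.24 (adjusted p = 0.943).

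Gene structure followed class. In the RefSeq annotation of TAIR10.1 all 28 tau genes had 2 coding exons, 10 of the 13 phi genes had 3, and the zeta, lambda and theta genes had 7 to 10. Tau coding sequences ran from 654 to 765 bases. By deposited position, 34 of the 59 members stood in 12 tandem groups, of which the tau array on chromosome 2, with 7 genes, was the longest, followed by the phi array of GSTF7, GSTF6, GSTF5 and GSTF4. By the deposited gene ontology terms, 55 of the 59 were annotated with glutathione transferase activity, 46 with toxin catabolic process and 12 with response to cadmium ion.

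Promoters of the members were searched because TGA1 rose in VQ28OE9 and because VQ proteins bind WRKY factors. The window was 250 bases before to 50 after the RefSeq start, and the motifs were the TGA-bound pentamer TGACG and the W box forms TTGACC and TTGACT, on both strands. TGACG was in 20 of the 59 windows (33.9%), beside 23.1% of all 27443 promoters. TTGACC was in 13 (22%, beside 14.2%), TTGACT in 21 (35.6%, beside 21.8%), and one or the other in 29 (49.2%, beside 32.4%). The full palindrome TGACGTCA was in 1, that of GSTU7 (0.627% of all promoters), and CACGTG in 6 (10.2%, beside 7.68%). A match is a description of letters and not of binding.

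The 250 bases before the start are shown for the called tau and phi genes and for GSTU4, the neighbour of GSTU3, in build TAIR10.1, 5' to 3' on the minus strand of each gene; capitals mark the pentamer and the W box forms on either strand. They are chr4:1112034-1112283 for GSTF2, chr2:12629641-12629890 for GSTU3, chr2:12627892-12628141 for GSTU4 and chr1:26338819-26339068 for GSTU11.
GSTF2: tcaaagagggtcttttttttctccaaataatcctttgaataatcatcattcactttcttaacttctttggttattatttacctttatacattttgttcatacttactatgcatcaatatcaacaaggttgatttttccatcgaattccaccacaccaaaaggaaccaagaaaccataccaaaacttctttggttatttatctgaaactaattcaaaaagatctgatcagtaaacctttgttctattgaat
GSTU3: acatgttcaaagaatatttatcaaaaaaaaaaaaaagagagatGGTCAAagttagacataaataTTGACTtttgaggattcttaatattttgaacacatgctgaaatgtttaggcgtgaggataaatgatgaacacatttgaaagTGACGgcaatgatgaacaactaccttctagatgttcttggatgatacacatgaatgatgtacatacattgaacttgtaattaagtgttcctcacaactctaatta
GSTU4: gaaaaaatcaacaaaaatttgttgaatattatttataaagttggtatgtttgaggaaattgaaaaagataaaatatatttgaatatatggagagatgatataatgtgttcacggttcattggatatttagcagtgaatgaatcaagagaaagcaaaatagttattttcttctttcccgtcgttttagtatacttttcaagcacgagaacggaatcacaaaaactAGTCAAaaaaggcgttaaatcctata
GSTU11: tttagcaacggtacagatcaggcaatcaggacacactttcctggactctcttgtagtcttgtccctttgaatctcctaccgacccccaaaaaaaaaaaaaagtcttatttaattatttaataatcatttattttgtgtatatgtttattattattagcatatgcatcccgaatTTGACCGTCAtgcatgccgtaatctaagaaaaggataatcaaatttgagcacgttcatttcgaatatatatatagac
The GSTF2 window held none of these motifs. That of GSTU3 held 1 of each, that of GSTU4 held 1 TTGACT, and in that of GSTU11 a TGACG on one strand overlapped a TTGACC on the other. All windows were placed by the RefSeq start, and RefSeq and deposited boundaries were the same for only 5 members. For GSTF2 the RefSeq start is 1112033, while the deposited 5' end is 1111660, with no build named. The 250 bases before that deposited end lie outside the searched window. The absence of motifs therefore holds for the RefSeq window of GSTF2 only.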

How the data were processed

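Per the file headers, the authors deposited, for every gene and library, an FPKM, which is a fragment level per gene length and library depth, beside whole-number counts. The sources used here name no aligner, counter, build or use of strand. Values deposited by the authors as counts were treated as estimated counts, with no normalization found in them, since 48.7% to 57.0% of values from 1 to 16 were multiples of 4, beside 25% by chance; they are called units. Per the labels' protocols, libraries were poly(A)-selected, dUTP-marked and sequenced in pairs.

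Samples were grouped by their titles. Units were tested with edgeR 4.0.16 in R 4.3.3 (quasi-likelihood F test, TMM, two-sided, 1 mean per genotype over all 9 libraries) for the 16050 genes whose FPKM averaged 1 or more. A gene was called at a Benjamini-Hochberg adjusted p under 0.05 over all of them. SE is the log2 fold change over the square root of F. The steps were tested on simulated data. DESeq2 1.42.0, limma 3.58.1 on log2(FPKM + 1) or + 0.1, other filters, a replicate block, left-out libraries and units divided by 4 were alternatives. Replicate numbers were not used to pair libraries in the main test, since the labels do not say what they mark. Genes were placed by the deposited coordinates; sequences, starts and exons came from RefSeq TAIR10.1 by locus tag (59 of 59 matched; 28932 of all IDs), with no coordinate carried between them. AT4G20000 was read as VQ28, by the family's published numbers.

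Members named were those called in any comparison, the 10 highest in WT, the 3 smallest p where fewer than 3 were called, those at 20 FPKM or more whose libraries did not overlap, and from each pathway list the called genes or else the smallest p. The members and lists were chosen with earlier results of these data known. With 3 against 3 libraries, overlap was described and not tested. Intervals of depth cover counting error only.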

Additional observations from a re-analysis of the deposited data

How the results depend on the processing

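Genes followed here were named for calls, small p or libraries that did not overlap in these same data. That choice favours a kept sign, so the counts of kept signs are a description only. No called result changed sign under any alternative, and 910 of 912 alternative fold changes of named genes kept theirs. The exceptions were uncalled values of VQ28KO12 against WT without WT 2 and VQ28KO12 1 and 2, chosen after seeing the data: GSTF2 went from -0.28 to 0.049 and AT1G77290 from -0.17 to 0.10. That setting gave 0 members and 0 pathway genes in all comparisons, with 17 genes called in all for VQ28OE9 against WT and 22 against VQ28KO12, and it leaves 6 libraries. For VQ28OE9 against WT (2 members, 4 pathway genes called), DESeq2 gave 5 and 9, beside 8.46% of all genes; leaving out 1 library gave 0 to 3 and 2 to 4; without WT 3 and VQ28OE9 3 there were 1 and 2. For VQ28OE9 against VQ28KO12 (4 and 8), DESeq2 gave 9 and 13, beside 12.2% of all genes. Leaving out 1 library gave 0 to 4 and 2 to 10. Without WT 3 and VQ28OE9 3 there were 2 members, GSTF2 and GSTU4 (edgeR adjusted p = 0.0134 and 0.0406). With only the 6 libraries compared there were 2 as well, GSTF2 and GSTU11 (0.013 and 0.0289). With a mean FPKM of at least 5 there were also 2, GSTF2 and AT5G12110 (edgeR adjusted p = 0.0164 and 0.0314). GSTU11 and AT1G77290, with means of 2.66 and 4.36 FPKM over all libraries, fell under that filter and were not tested there. The cause of the other changes was not tested. VQ28KO12 against WT gave 0 members in every setting. Same-numbered libraries deviated together with r of -0.199 to 0.309, beside -0.328 to 0.315 for differently numbered ones. With 3 libraries a genotype, these values cannot exclude a shared batch. With the replicate block, 3 members were called in VQ28OE9 against WT, 4 against VQ28KO12 and 0 in VQ28KO12 against WT, and 468, 1055 and 1 of all genes. The block added GSTF4 against WT (adjusted p = 0.05 when rounded), and against VQ28KO12 it added GSTF9 (0.0373) and lost AT1G77290 (0.0556); GSH1 lost its calls against WT (0.0521) and VQ28KO12 (0.0554), and OASC against VQ28KO12 (0.0522). All-gene calls of VQ28OE9 against WT were 370, and 46 to 337 when 1 library was left out; between the lines they were 1016, and 131 to 1241. GSTU11 and GSTU9, at a few FPKM, had 73 to 382 and 8 to 222 deposited units a library. The part of depth in their spread was not tested.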
